A study of Mus musculus with 2 samples.

Results

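Transcripts of 10 genes of TGF-beta and activin signalling were followed across the cells of mouse pancreatic tumours: the ligands Tgfb1, Tgfb2, Tgfb3, Inhba and Bmp4, the receptors Tgfbr1, Tgfbr2 and Tgfbr3, and the secreted antagonists Grem1 and Fst. They were taken by symbol, as 10 of the 32285 genes in the count matrices. The tumours were grown by implanting KPC pancreatic cancer cells, a line from a genetically driven mouse model of the disease, into the pancreas, and were taken at day 21. Control mice were Porcnfl/fl without Cre and are labelled wild type. Knockout mice were Csf1r-Cre;Porcnfl/fl littermates, so that Porcn, whose product acylates WNT proteins for secretion, was floxed in both groups and recombined where Csf1r-Cre is active, in macrophages and other cells that express Csf1r. The implanted tumour cells carried no Cre. Tumours from 5 mice per genotype went into 1 droplet library as a pool, so differences between the libraries have no replicate check. No test was made, and every interval is an exact 95% interval that covers counting error only. Sex and age of the mice were not given in the sources used here.

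TGF-beta ligands are secreted in a latent form, and once released they assemble a complex of the type II receptor TGFBR2 and the type I receptor TGFBR1, which phosphorylates SMAD proteins. TGFBR3, or betaglycan, is a co-receptor that presents ligand, TGF-beta 2 above all. Inhba encodes the beta A subunit of activin A, which acts through its own receptors on the same SMADs and is bound and blocked by follistatin, the product of Fst. BMP4 signals through a different set of SMADs, and gremlin 1, the product of Grem1, binds and blocks BMPs. In pancreatic cancer the pathway is known both for halting epithelial growth and for driving the matrix-producing fibroblast state.

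The control library held 11516 cells and the knockout library 10467 cells after filtering and doublet removal, at medians of 12200 and 10109 unique molecular identifiers (UMIs) per cell. Cell classes were rebuilt here from markers that included none of the 10 genes, and gave 14 named classes. The labels call the cells tumour-infiltrating, but 82% of control cells and 55.8% of knockout cells carried epithelial and tumour markers, and shares of other classes follow from that. Porcn was counted 8 times in the control monocyte/macrophage-like cells and 4 times in those of the knockout (3.27 and 1.42 counts per 1000000, CPM, with intervals of 1.41 to 6.45 and 0.387 to 3.63). Whether the 3′ reads lie in the deleted part is not given in the sources used here, so these counts do not check the labels. The libraries shared 46 cell barcodes, of which 38 were kept in both. Levels below are UMIs of a gene per 1000000 UMIs of the class in that library. Ratios are knockout over control, for the 5 classes in which both libraries had 100 cells or more. Where clusters or subsets are said to be weighted alike, each has the same weight in both libraries, its share of the cells of both together. The makeup is then held the same, for the clusters or subsets that enter. For fibroblast-like cells these were the 6 of 11 clusters with at least 20 cells in each library. The 5 left out held 124 and 10, 109 and 1, 76 and 16, 18 and 24, and 19 and 139 control and knockout cells.

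The genes divided by where their transcripts were counted. Tumour-like cells held 92% of control and 91.7% of knockout Inhba UMIs, 98.5% and 96.8% of Grem1 UMIs and 93.4% and 93.5% of Fst UMIs. Fibroblast-like cells held 61.1% and 78.3% of Tgfb2 UMIs and 71.9% and 80% of Tgfbr3 UMIs, although they made up only 640 of the control cells and 733 of the knockout cells. Tgfb1, Tgfbr1 and Tgfbr2 were counted in every class with a ratio. The same gene is compared between classes here; levels of different genes are not ranked against each other.

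**Figure D1:**
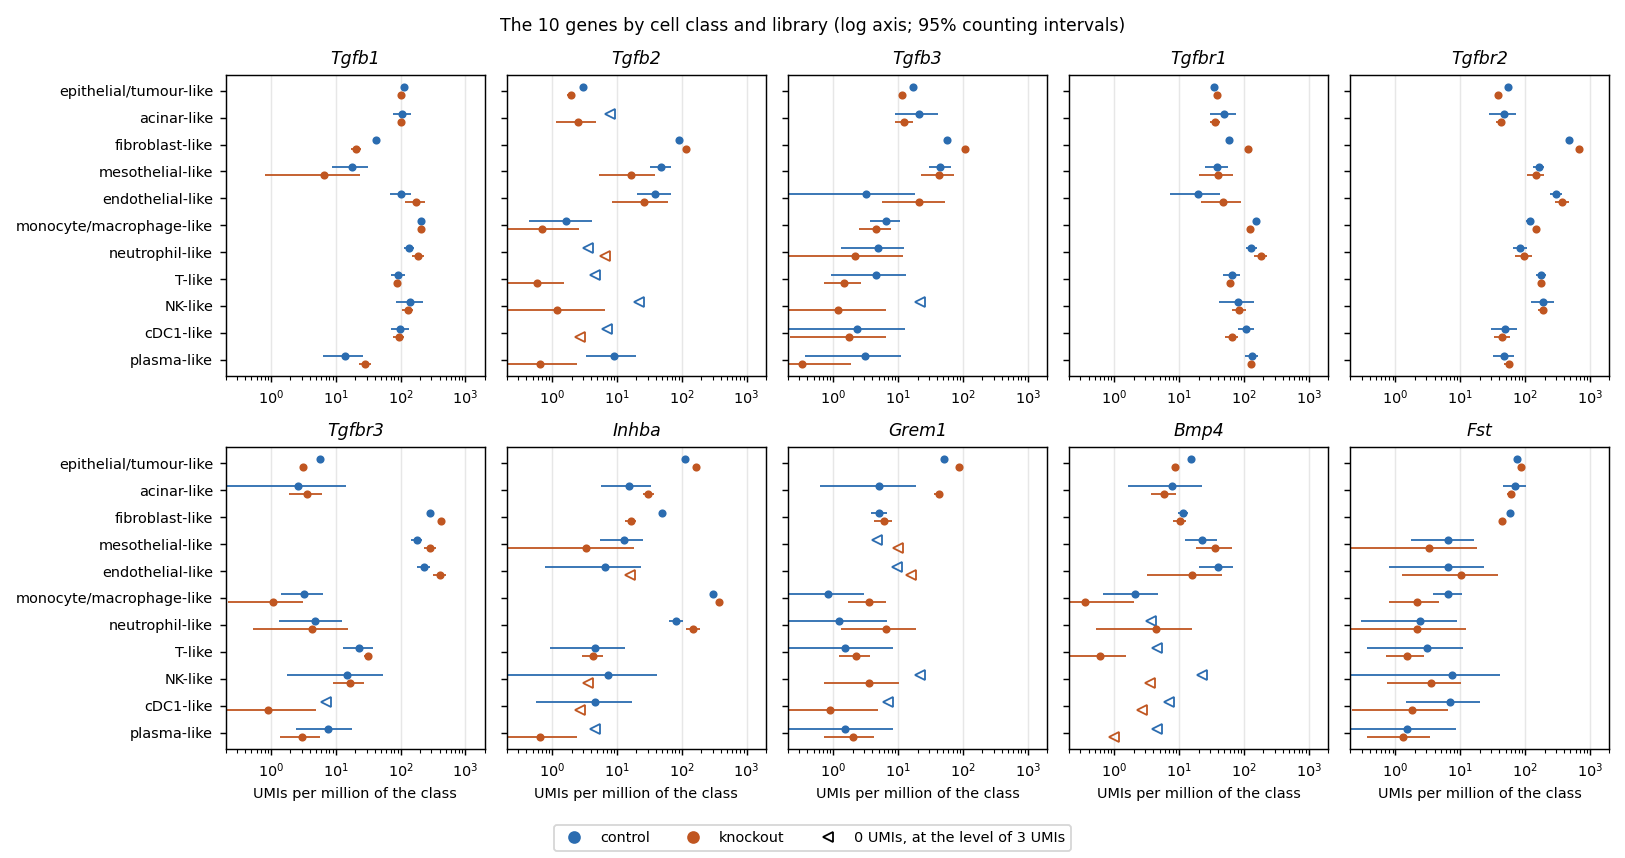
Level of each gene (UMIs per 1000000 of the class, log axis) in 11 cell classes of the control (blue) and knockout (orange) library; bars are exact 95% counting intervals and open triangles mark 0 UMIs, drawn at the level of 3 UMIs. Among the 5 classes with a ratio, Inhba and Tgfb1 were highest in monocyte/macrophage-like cells (308 and 206 CPM in the control), Grem1 in tumour-like cells (50.6 and 87.5 CPM) and Tgfbr2 in fibroblast-like cells (471 and 675 CPM).

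With the knockout set against the control and a ratio past 1.5-fold as the measure of a difference, 1 of the 10 genes was higher and 2 were lower in tumour-like cells, where 9.87% of 17409 genes were higher and 6.48% lower. In fibroblast-like cells 2 were higher and 2 lower, against 19.4% and 13.5% of 13477 genes. In monocyte/macrophage-like cells 0 of the 6 genes with at least 20 UMIs were higher and 1 was lower, against 8% and 10.3% of genes. In neutrophil-like cells 1 of 4 was higher and 0 were lower, against 16.8% and 18.7%, and in T-like cells 0 of 5 passed in either direction, against 10.2% and 16.5%. With so few genes these counts are near the background and do not set the group apart. The median log2 ratio of the genes was -0.32 in tumour-like cells, 0.29 in fibroblast-like cells, -0.12 in monocyte/macrophage-like cells, 0.48 in neutrophil-like cells and -0.08 in T-like cells, beside -0.06, 0.09, -0.02, -0.05 and -0.07 over all genes.

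**Figure D2:**
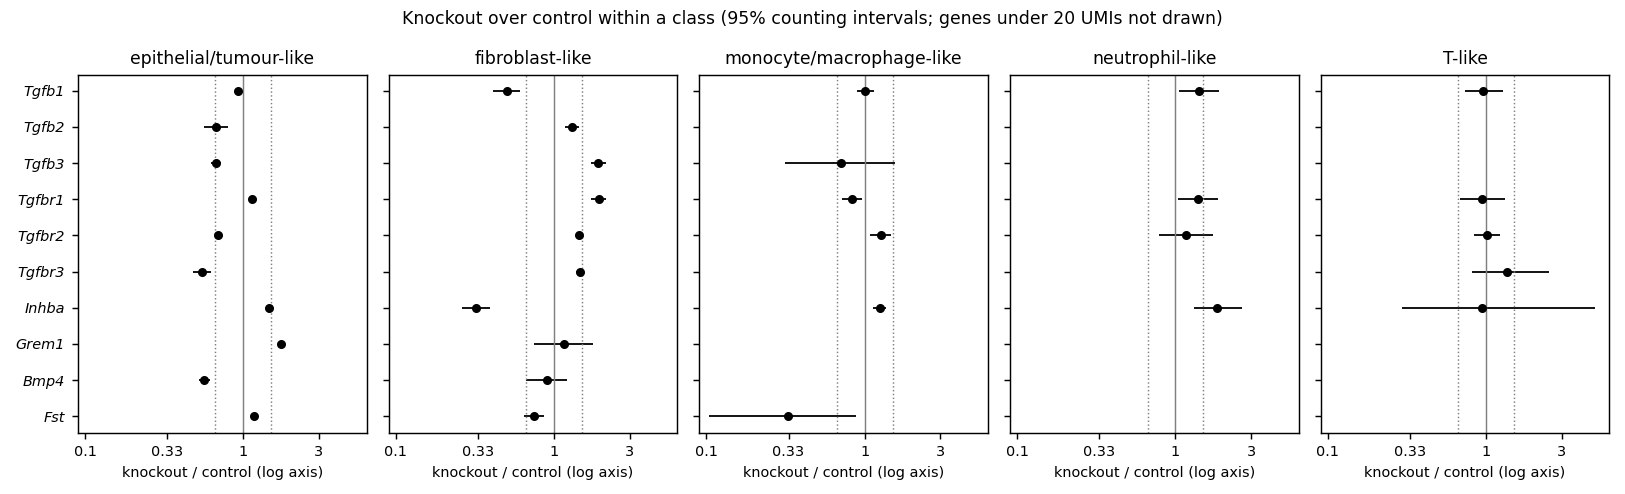
Ratio of knockout over control (log axis) for each gene in the 5 classes with 100 cells or more per library, with exact 95% counting intervals as bars and dotted lines at 1.5-fold; genes under 20 UMIs are not drawn. In tumour-like cells Grem1 lies past the upper line at 1.73, and in fibroblast-like cells Inhba is lowest at 0.322.

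Of the ligands, Tgfb1 encodes the TGF-beta made by most cell types. It stood at 206 CPM in control and 209 CPM in knockout monocyte/macrophage-like cells, a ratio of 1.01 (0.897 to 1.14). In tumour-like cells it was 112 CPM in the control and 103 CPM in the knockout, a ratio of 0.923 (0.901 to 0.946). This small difference had 1 direction across the tumour: in all 12 tumour subsets with at least 100 cells per library the ratio was under 1, between 0.733 and 0.977, and 5 of the intervals lay wholly under 1. In T-like cells the levels were 92.1 and 88.3 CPM. Neutrophil-like cells had 134 CPM in the control and 188 CPM in the knockout, a ratio of 1.4 (1.05 to 1.87). In their largest cluster, led by Cxcl2 and Il1b, the values were 267 and 255 CPM, and the other neutrophil-like clusters held 104 and 54 control cells but 32 and 11 knockout cells. Fibroblast-like cells had the lowest Tgfb1 of the 5 classes, 41.1 CPM in the control and 20.6 CPM in the knockout. The ratio was 0.501 (0.412 to 0.606). By their leukocyte transcripts, mostly Cd74, free RNA could reach 26% and 7.15% of the library level there, and less by keratins. That library level of Tgfb1 was 108 and 99.2 CPM. The part of free RNA in this difference was not tested.

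Tgfb2, the isoform best known from development and mesenchyme, was a stromal transcript. Fibroblast-like cells had 90.7 CPM in the control and 118 CPM in the knockout, a ratio of 1.3 (1.18 to 1.43). All 6 fibroblast-like clusters with at least 20 cells in each library had more Tgfb2 in the knockout, with ratios of 1.17 to 2.14, and 3 of the intervals lay above 1. With those clusters weighted alike the levels were 79.5 and 128 CPM, a log2 ratio of 0.68. Pericyte-like cells reached 156 CPM over 52 control cells and 116 CPM over 9 knockout cells. Tumour-like cells had 2.97 and 1.99 CPM, and most of the subsets with a ratio, 6 of 7, were lower in the knockout. The exception to the low tumour level was a small subset led by Epcam and Cldn3 (43 and 54 cells), with 93.6 CPM in the control and 44.2 CPM in the knockout.

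Tgfb3, the isoform of the mesenchyme and of wound repair, was 57.4 CPM in control and 109 CPM in knockout fibroblast-like cells, a ratio of 1.9 (1.7 to 2.12). That difference did not hold within the clusters. Tgfb3 was concentrated in a cluster led by Col1a2, Col1a1 and Mfap5 (269 and 216 CPM) and in a cluster with Gpx3, Abi3bp and Sfrp1 among its leading genes (268 and 211 CPM), and the second of these held 19 control cells and 139 knockout cells. Of the 6 clusters with at least 20 cells per library, 3 were higher and 3 lower in the knockout, with ratios from 0.164 to 1.9. Weighted alike, they gave 90.8 CPM in the control and 65.5 CPM in the knockout, a log2 ratio of -0.47. Tumour-like cells had 17.3 and 11.6 CPM, a ratio of 0.671 (0.626 to 0.72), and 11 of 12 subsets lay under 1.

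Inhba, the activin A subunit, had its highest class level in monocyte/macrophage-like cells. The control value was 308 CPM (752 UMIs in 159 of 509 cells) and the knockout value 380 CPM (1072 UMIs in 117 of 553 cells), a ratio of 1.24 (1.13 to 1.36). More UMIs thus came from a smaller share of cells, 31.2% and 21.2%. After each cell was thinned to 1000 UMIs, which left out 14 and 11 cells, the shares with a UMI were 18.8% (15.4 to 22.5) and 12.7% (10 to 15.8). In T-like cells, which are not known as a main activin source, the thinned shares were 0.556% and 0.442%, and their levels of 4.53 and 4.29 CPM were near the 3.87 and 4.11 CPM that free RNA could give. Median UMIs per cell were 2873 and 3996 in monocyte/macrophage-like cells and 2823 and 3342 in T-like cells.

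The macrophage total mixed clusters that differed in opposite directions. Inhba was 788 CPM in the control and 1130 CPM in the knockout in a cluster led by Arg1, Ms4a6d and Ms4a4c, a ratio of 1.44 (1.18 to 1.77), and this cluster held 37 control cells and 153 knockout cells. In a cluster led by Arg1, Pid1 and F10 it was 729 and 480 CPM, a ratio of 0.658 (0.522 to 0.827). In a cluster led by Arg1, Mmp12 and Chil3 it was 314 and 202 CPM, a ratio of 0.642 (0.536 to 0.767). The cluster led by the complement genes C1qa and C1qb had little Inhba in either library, 7.23 and 24.7 CPM from 5 and 25 UMIs. With these clusters weighted alike the log2 ratio over the class was -0.09 instead of 0.31. Neutrophil-like cells had 81.2 CPM in the control and 149 CPM in the knockout, a ratio of 1.84 (1.3 to 2.62). In their cluster led by Cxcl2 and Il1b, with 135 and 142 cells, the values were 71 and 214 CPM, a ratio of 3.01 (1.74 to 5.5). The other neutrophil-like clusters had the opposite order, with 113 and 57.1 CPM from 46 and 6 UMIs in the one led by S100a9, S100a8 and Camp, and 22.5 CPM from 4 UMIs and 0 UMIs in the other. The share of neutrophil-like cells with an Inhba UMI was 12.3% in the control and 9.73% in the knockout, without thinning. Thinned to 1000 UMIs the order was the opposite, 3.94% (1.98 to 6.94) and 6.01% (3.04 to 10.5), with overlapping intervals.

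In tumour-like cells Inhba was 113 CPM in the control and 164 CPM in the knockout, a ratio of 1.45 (1.42 to 1.48). In fibroblast-like cells the order was the opposite, with 50.5 and 16.3 CPM, a ratio of 0.322 (0.261 to 0.395). Free RNA could give 28.5 and 9.86 CPM in those fibroblast-like cells by their leukocyte transcripts, at 26% and 7.15% of the library level. Cd74 made up 95.8% and 78.9% of these transcripts, so the levels rest mostly on that gene. By keratins the shares were lower, 14.8% and 4.12%. The summed epithelial and tumour markers in the same cells were 938 CPM in the control and 268 CPM in the knockout. The part of free RNA in this difference was not tested. Fibroblast-like Inhba was highest in a cluster led by Col1a1, Col1a2 and Slit3, which held 124 control cells and 10 knockout cells (125 and 51.4 CPM). With the 6 clusters of at least 20 cells in each library weighted alike, the levels were 14.2 and 13.5 CPM. That weighting leaves out the cluster with the highest level.

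Bmp4, a ligand of the BMP branch, was counted mostly in tumour-like cells, with 15.3 CPM in the control and 8.69 CPM in the knockout, a ratio of 0.567 (0.523 to 0.613). All 11 subsets with a ratio were lower in the knockout, between 0.341 and 0.817, and 9 of the intervals lay wholly under 1. The lowest ratio was in the subset led by Hilpda, Mgarp and Hmox1, with 12.8 and 4.35 CPM. Fibroblast-like cells had 11.5 and 10.3 CPM, a ratio of 0.898 (0.66 to 1.21). With the clusters weighted alike they had 20.3 and 10.6 CPM, a log2 ratio of -0.93. The 2 clusters with a ratio had 0.534 (0.286 to 1.05) and 0.578 (0.147 to 1.66), and both intervals reached above 1. Endothelial-like cells reached 39.2 CPM from 12 UMIs in the control and 15.7 CPM from 3 UMIs in the knockout.

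The stretch of 250 bases before the annotated start is shown for Inhba, Grem1 and Bmp4, because tumour-like cells held most of their transcripts and their levels there differed between the libraries. The sequences are from RefSeq on GRCm38.p6, for Inhba at chr13:16011601-16011850 on the plus strand, for Grem1 at chr2:113758649-113758898 on the minus strand and for Bmp4 at chr14:46390670-46390919 on the minus strand, each read 5′ to 3′ along the gene. Capitals mark a match to TATAAA in Inhba and the overlapping matches of ACGTG on both strands in Bmp4.
Inhba: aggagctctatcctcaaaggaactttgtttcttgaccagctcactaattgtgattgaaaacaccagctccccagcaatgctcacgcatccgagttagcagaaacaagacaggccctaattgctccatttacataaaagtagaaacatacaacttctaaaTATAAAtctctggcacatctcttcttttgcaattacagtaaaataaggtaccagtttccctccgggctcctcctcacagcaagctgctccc
Grem1: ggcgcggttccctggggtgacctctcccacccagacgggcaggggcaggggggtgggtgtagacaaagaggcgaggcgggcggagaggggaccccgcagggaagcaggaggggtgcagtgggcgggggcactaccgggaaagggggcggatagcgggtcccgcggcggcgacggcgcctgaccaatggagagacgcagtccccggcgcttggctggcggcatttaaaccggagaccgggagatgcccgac
Bmp4: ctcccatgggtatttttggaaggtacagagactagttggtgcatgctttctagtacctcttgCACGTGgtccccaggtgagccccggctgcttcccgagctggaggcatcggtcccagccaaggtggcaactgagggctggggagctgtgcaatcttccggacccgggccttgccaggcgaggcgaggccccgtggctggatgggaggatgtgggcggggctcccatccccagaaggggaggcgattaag
The Inhba match starts 91 bases before the start, and the Bmp4 match 188 bases before it. Searched on both strands of 32851 promoters of the same length, TATAAA was present in 12.4%, the hypoxia-type ACGTG in 16.6%, the SMAD-type CAGACA in 17.1% and the AP-1-type TGANTCA in 6.75%. Of the 10 genes, 7 had a promoter in the RefSeq table, 8 promoters in all. ACGTG was found for Bmp4 and Tgfb2, CAGACA for Tgfb2 and Tgfbr1, TATAAA for Inhba and Tgfb2, and TGANTCA for 0 of the 8. G and C made up 72% of the Grem1 stretch, 63.2% of the Bmp4 stretch and 43.2% of the Inhba stretch, beside a median of 52.4% over all promoters. A match of such short letters describes the sequence and does not show a bound site.

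Among the receptors, Tgfbr2, the type II receptor that binds TGF-beta first, was highest in fibroblast-like cells. It was 471 CPM in the control and 675 CPM in the knockout there, a ratio of 1.43 (1.38 to 1.49). With their clusters weighted alike the levels were 584 and 651 CPM, a log2 ratio of 0.16 beside 0.52 for the whole class. Endothelial-like cells had 300 and 376 CPM over 44 and 23 cells, natural killer-like cells 192 and 189 CPM, and T-like cells 177 and 179 CPM. Monocyte/macrophage-like cells were lower at 118 and 148 CPM, a ratio of 1.26 (1.08 to 1.47), and neutrophil-like cells had 83.6 and 97.4 CPM. Tumour-like cells had 54.3 CPM in the control and 37.6 CPM in the knockout, a ratio of 0.692 (0.666 to 0.72). With the subsets weighted alike they had 54.1 and 44.7 CPM, a log2 ratio of -0.27 beside -0.53 for the whole class. The direction was shared by all 12 tumour subsets with a ratio (0.53 to 0.971), and 6 of the intervals lay wholly under 1. The lowest ratio, again in the subset led by Hilpda, Mgarp and Hmox1, came from 25 and 13.3 CPM.

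Tgfbr1, the type I receptor kinase, was 151 CPM in control and 125 CPM in knockout monocyte/macrophage-like cells, a ratio of 0.828 (0.713 to 0.961). It was largest in the cluster led by C1qa and C1qb, where it was 340 and 223 CPM, a ratio of 0.658 (0.545 to 0.793). In neutrophil-like cells it was 130 and 180 CPM, but in their Cxcl2 and Il1b cluster 313 and 251 CPM. Fibroblast-like cells had 59.8 CPM in the control and 114 CPM in the knockout, a ratio of 1.91 (1.71 to 2.12), while the clusters weighted alike gave a log2 ratio of 0.13. Tumour-like cells had 33.9 and 38.3 CPM, a ratio of 1.13 (1.08 to 1.18), and T-like cells 65 and 60.8 CPM.

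Tgfbr3, the co-receptor betaglycan, was a stromal transcript like Tgfb2. It was 288 CPM in control and 416 CPM in knockout fibroblast-like cells, a ratio of 1.45 (1.37 to 1.52), and 228 and 402 CPM in endothelial-like cells. Mesothelial-like cells had 178 and 289 CPM. The fibroblast difference was smaller when the clusters were weighted alike, with a log2 ratio of 0.18 beside 0.53. Tumour-like cells had 5.66 and 3.09 CPM, a ratio of 0.546 (0.478 to 0.623). That lower value went with the makeup of the tumour cells: the subset led by Crabp2, Serpinf1 and Bnc2 had 44.1 and 58.3 CPM and was 4.02% and 0.702% of them, and with the subsets weighted alike the log2 ratio was 0.03. The exons of Tgfbr3 overlap those of Gm43422 on the same strand, so its counts are less certain.

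Of the antagonists, Grem1 was counted almost only in tumour-like cells, with 50.6 CPM in the control and 87.5 CPM in the knockout, a ratio of 1.73 (1.68 to 1.78). After thinning to 1000 UMIs, 4.06% (3.67 to 4.47) of control and 6.98% (6.33 to 7.66) of knockout tumour-like cells had a UMI, beside 18.4% and 32.9% unthinned. The thinned shares in T-like cells were 0.556% and 0.126%, and median UMIs per cell were 13300 and 14929 in tumour-like cells. All 12 tumour subsets with a ratio had more Grem1 in the knockout, from 1.06 to 2.65, and 10 of the intervals lay wholly above 1. Weighted alike, the subsets gave a log2 ratio of 0.82, close to the 0.79 of the whole class. In fibroblast-like cells, the class known for Grem1 in other gut tumours, it was 5.17 and 5.98 CPM. Free RNA could give 11.9 and 4.98 CPM there by leukocyte transcripts, and less by keratins. Cells with acinar markers had 5.17 CPM over 31 control cells and 42.3 CPM over 265 knockout cells. Cd74 made up 99.9% and 99.1% of the leukocyte transcripts used for their free RNA estimate, so no usable level could be given. Their epithelial and tumour markers summed to 6210 and 6470 CPM, near the 6580 and 6660 CPM of tumour-like cells. The part of free RNA in this difference was not tested.

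Fst, which encodes the activin-binding follistatin, was 74.3 CPM in control and 86.4 CPM in knockout tumour-like cells, a ratio of 1.16 (1.13 to 1.2). Fibroblast-like cells had 58.4 and 43.7 CPM, a ratio of 0.747 (0.649 to 0.859), above the 18.4 and 5.09 CPM that free RNA could give. That difference did not hold with the clusters weighted alike, which gave 50.7 and 53.2 CPM, a log2 ratio of 0.07, and 3 clusters were higher and 3 lower, from 0.488 to 3.46. In monocyte/macrophage-like cells 16 UMIs were counted in the control and 6 in the knockout, a ratio of 0.325 (0.104 to 0.875). These were 6.54 and 2.13 CPM, near the free RNA levels of 5.42 and 2.87 CPM.

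Within the tumour cells, which were clustered again into 19 subsets without the 10 genes, Inhba and Grem1 were concentrated in the same few subsets. In the subset led by Dynap, Prl2c3 and Jag1, called subset 8, Inhba was 850 CPM in the control and 869 CPM in the knockout, a ratio of 1.02 (0.989 to 1.06). Its 316 control cells held 6617 of the 17008 Inhba UMIs of the tumour-like cells, and its 333 knockout cells 7029 of 16335. The level in these cells was thus alike in both libraries within counting error, and their share of the tumour cells was 3.35% and 5.7%. Subset 3, led by Hilpda, Mgarp and Hmox1, had 9 of 10 listed interferon-response genes and 6 of 10 listed hypoxia genes at least 2-fold above the other tumour cells. Subset 3 made up 7.38% of the control and 18.5% of the knockout tumour cells. Its Inhba was 184 and 314 CPM, a ratio of 1.7 (1.62 to 1.79). Subset 12, led by Ndrg1 and Gbe1, had 38.2 and 71.5 CPM.

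Lower levels, and the opposite order, were found in subset 2 (16.1 and 10.7 CPM) and subset 4 (28.2 and 18.2 CPM). Over the 12 subsets with a ratio, Inhba was higher in the knockout in 6 and lower in 6, from 0.648 to 2.69. Weighted alike, the subsets gave 98.9 and 116 CPM, a log2 ratio of 0.23 beside 0.53 for the whole class.

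**Figure D3:**
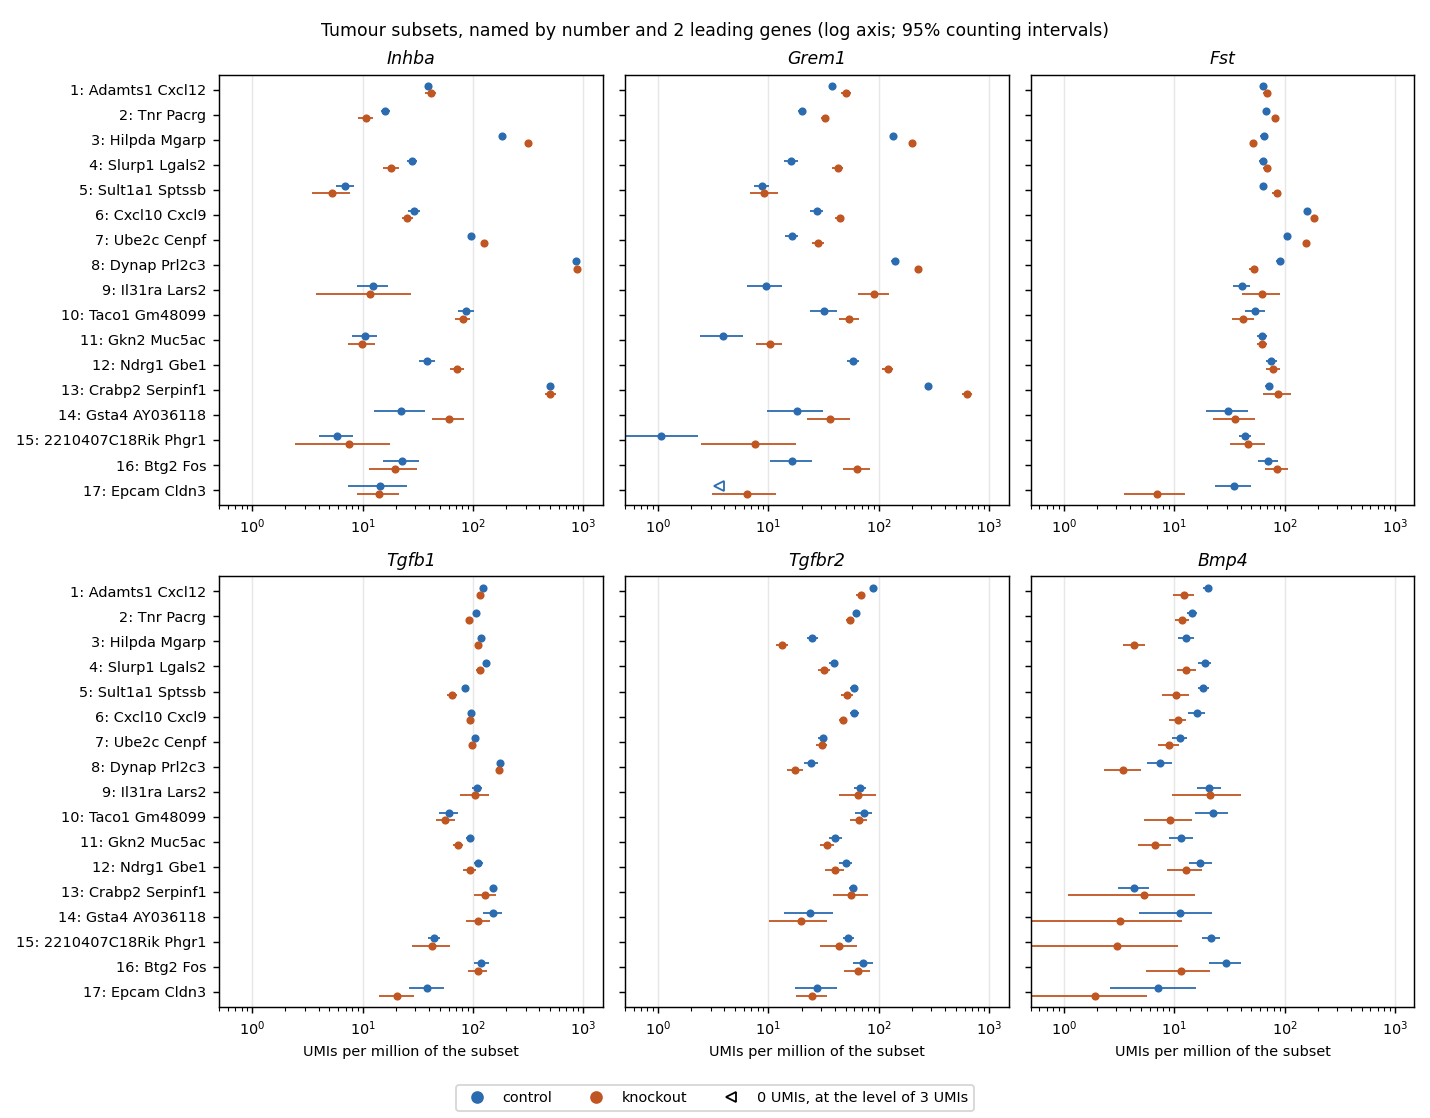
Levels of Inhba, Grem1, Fst, Tgfb1, Tgfbr2 and Bmp4 (UMIs per 1000000 of the subset, log axis) in 17 of the 19 tumour subsets, without those led by T-cell and red-cell genes, for control (blue) and knockout (orange); bars are exact 95% counting intervals and the open triangle marks 0 UMIs at the level of 3 UMIs. Inhba is highest in subset 8 (850 and 869 CPM), Grem1 in subset 13 (281 and 625 CPM) and Fst in subset 6 (161 and 183 CPM).

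Grem1 was 139 CPM in control and 225 CPM in knockout cells of subset 8, a ratio of 1.62 (1.5 to 1.75), and 134 and 200 CPM in subset 3, a ratio of 1.49 (1.41 to 1.59). Subset 13, led by Crabp2, Serpinf1 and Bnc2, had 281 and 625 CPM of Grem1 and 497 and 503 CPM of Inhba, over 380 control cells and 41 knockout cells. This subset carried fibroblast markers as well as epithelial ones, at sums of 671 and 3480 CPM in the control and 214 and 1820 CPM in the knockout. Its place among the tumour cells also depended on the processing. With a stricter filter on cells 89 of the 380 control cells stayed in the class, and 0 were called fibroblast-like. Without it, the log2 ratio over tumour-like cells was 0.85 for Inhba and 1.21 for Grem1.

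Fst had a different pattern. It was highest in subset 6, led by the interferon-induced chemokine genes Cxcl10 and Cxcl9, with 161 CPM in the control and 183 CPM in the knockout, a ratio of 1.13 (1.06 to 1.22). In the cycling subset 7 it was 106 and 157 CPM, a ratio of 1.48 (1.38 to 1.6). In subset 8, where Inhba was highest, Fst was lower in the knockout, with 90.1 and 52.7 CPM, a ratio of 0.584 (0.517 to 0.66).

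The overlap of Inhba and Grem1 was also seen cell by cell. Among thinned control tumour-like cells, 16.2% (13.1 to 19.7) of the 512 cells with an Inhba UMI had a Grem1 UMI, against 3.35% (2.99 to 3.75) of the 8883 cells without one. In the knockout the shares were 20.1% (16.7 to 23.8) of 513 cells and 5.71% (5.1 to 6.37) of 5292 cells. Fst did not go with Inhba in this way, with 7.23% against 6.69% in the control and 5.46% against 7.6% in the knockout. Tgfb1 was found in 17.2% of control cells with an Inhba UMI and 10.5% of those without, and in 11.3% and 9.62% of knockout cells.

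The fibroblast-like cells differed in makeup between the libraries, and levels of some of these genes differed within a cluster as well. Of the 11 clusters, 6 held at least 20 cells in each library. The cluster led by Fbn1 and Mfap5, with 26 control and 108 knockout cells, had the highest Tgfbr2 of these 6, 1050 and 1010 CPM. A cluster led by Ptn, Slit3 and Svep1, with 31 and 107 cells, had 142 CPM of Tgfb3 in the control and 23.3 CPM in the knockout, a ratio of 0.164 (0.0898 to 0.296). Its Tgfb1 was 58.7 and 9.52 CPM from 12 and 9 UMIs. A cluster with a high sum of epithelial and tumour markers, 3880 and 2240 CPM, had 18.2 and 65 CPM of Grem1. With the 6 clusters weighted alike, 2 of the 10 genes were higher in the knockout (Tgfb2 and Grem1) and 2 were lower (Tgfb1, at 30.6 and 17.2 CPM, and Bmp4, at 20.3 and 10.6 CPM), against 6.6% and 7.99% of 12191 genes. Only 3 of the clusters had enough UMIs for a Tgfb1 ratio. It was 0.162 (0.0604 to 0.42) in the Ptn-led cluster and 0.727 (0.463 to 1.1) in the one with high tumour markers. In the cluster led by Col1a2, Col1a1 and Mfap5 it was 0.978 (0.509 to 1.94). For Bmp4, 2 clusters had a ratio, and both intervals reached above 1. The Grem1 value, 2.83 and 8.66 CPM, rests on the cluster with the high sum of tumour markers. The other 5 had at most 2 Grem1 UMIs in a library. Over the whole class without the cluster with high tumour markers, the Grem1 log2 ratio was -0.26. The corresponding shares with tumour subsets weighted alike were 7.7% and 5.5%, with 1 of the 10 higher (Grem1) and 2 lower (Bmp4 and Tgfb2).

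**Figure D4:**
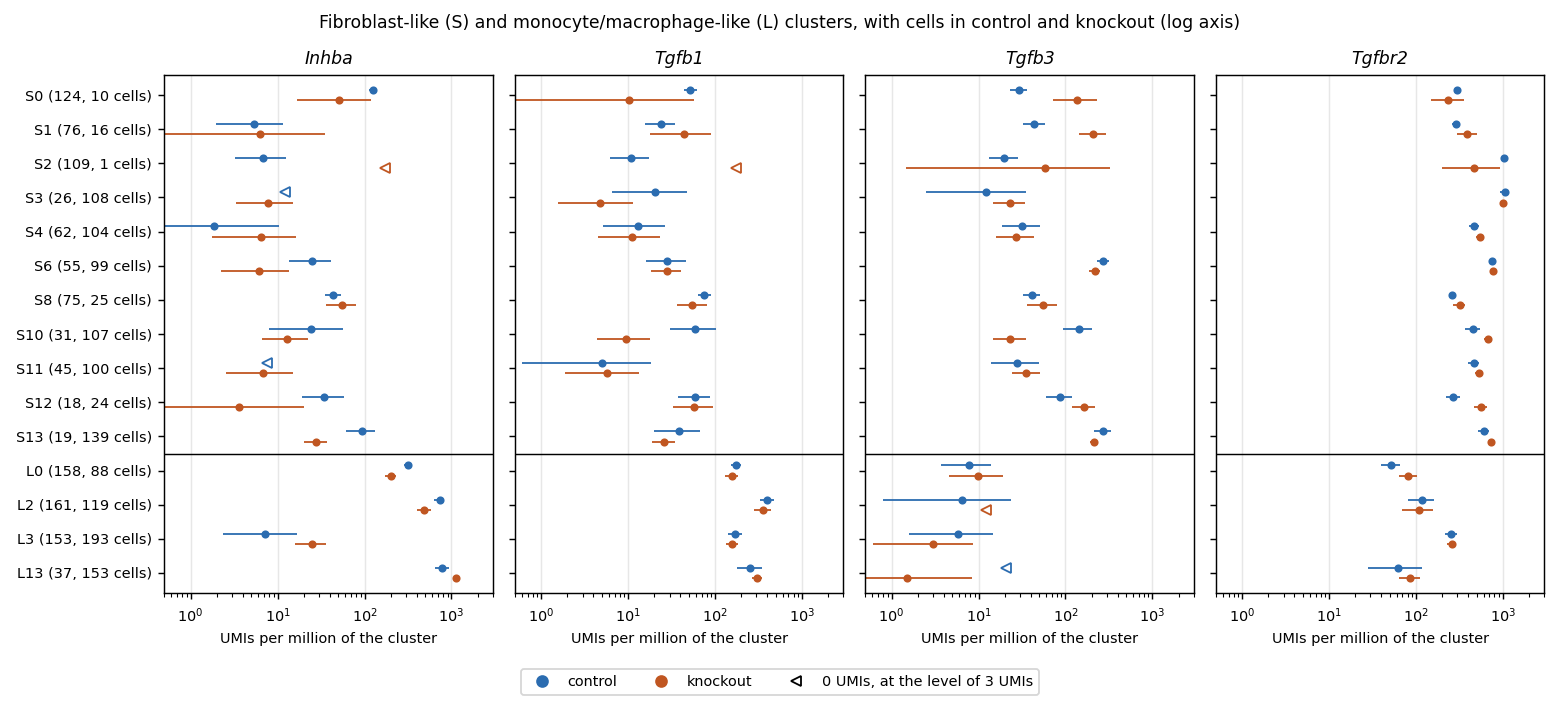
Levels of Inhba, Tgfb1, Tgfb3 and Tgfbr2 (UMIs per 1000000 of the cluster, log axis) in the 11 fibroblast-like clusters (S) and the 4 monocyte/macrophage-like clusters (L), with control and knockout cell numbers, bars for exact 95% counting intervals and open triangles for 0 UMIs at the level of 3 UMIs. Tgfb3 reaches 269 and 216 CPM in S6, and Inhba is high in the Arg1-led clusters L0, L2 and L13 but 7.23 and 24.7 CPM in the C1qa-led L3.

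Genes that TGF-beta is known to induce were followed as a list of 20. In fibroblast-like cells 19 had enough UMIs, of which 1 was higher and 9 were lower in the knockout past 1.5-fold, against 19.4% and 13.5% of all genes, with a median log2 ratio of -0.58 beside 0.09 over all genes. Those furthest down were Timp1, an inhibitor of matrix proteases (1910 and 259 CPM), Acta2, the smooth muscle actin of contractile fibroblasts (158 and 27.3 CPM), and Tgfbi, a secreted matrix protein (111 and 20.7 CPM). Col4a1, a basement membrane collagen, was the one higher, at 162 and 405 CPM. With the clusters weighted alike, 0 were higher and 6 lower, against 6.6% and 7.99% of all genes, with a median of -0.47 beside -0.01 over all genes. On that count Acta2 was 36.1 and 7.54 CPM, Timp1 383 and 190 CPM and Tgfbi 26.6 and 12 CPM. The median of this list thus lay under 0 in both ways of counting, whereas Tgfbr1 (0.13) and Tgfb3 (-0.47) were not higher past 1.5-fold with the clusters weighted alike.

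In tumour-like cells all 20 genes of the list had a ratio, of which 0 were higher and 6 lower, against 9.87% and 6.48% of all genes, with a median log2 ratio of -0.23 beside -0.06. The lowest were Ltbp2, a latent TGF-beta binding protein (4.79 and 1.36 CPM), Acta2 (3.71 and 1.29 CPM) and Thbs1, an activator of latent TGF-beta (29.1 and 12.8 CPM). The genes of the list with the highest levels differed little: Junb was 471 and 519 CPM, Pmepa1 260 and 251 CPM, and Cdkn2b 111 and 101 CPM. With the subsets weighted alike 0 were higher and 5 lower, against 7.7% and 5.5% of all genes. Thbs1 was then not past 1.5-fold, at 20.8 and 15.4 CPM; it was 284 and 194 CPM in the subset led by Crabp2, Serpinf1 and Bnc2, which held 380 control and 41 knockout cells. In that subset Acta2 was 37.3 and 0 CPM, and Ltbp2 was 61.7 and 28.3 CPM. In any other tumour subset they were at most 4.67 and 17.4 CPM. Summed fibroblast markers in tumour-like cells were 90.9 CPM in the control and 34.4 CPM in the knockout. The part of these markers and of that subset in the lower values of Acta2 and Ltbp2 was not tested. In monocyte/macrophage-like cells 12 genes of the list had a ratio, 1 higher and 4 lower, against 8% and 10.3% of all genes, with a median of 0.04. In neutrophil-like cells 4 of 7 were higher and 1 lower, against 16.8% and 18.7% of all genes.

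**Figure D5:**
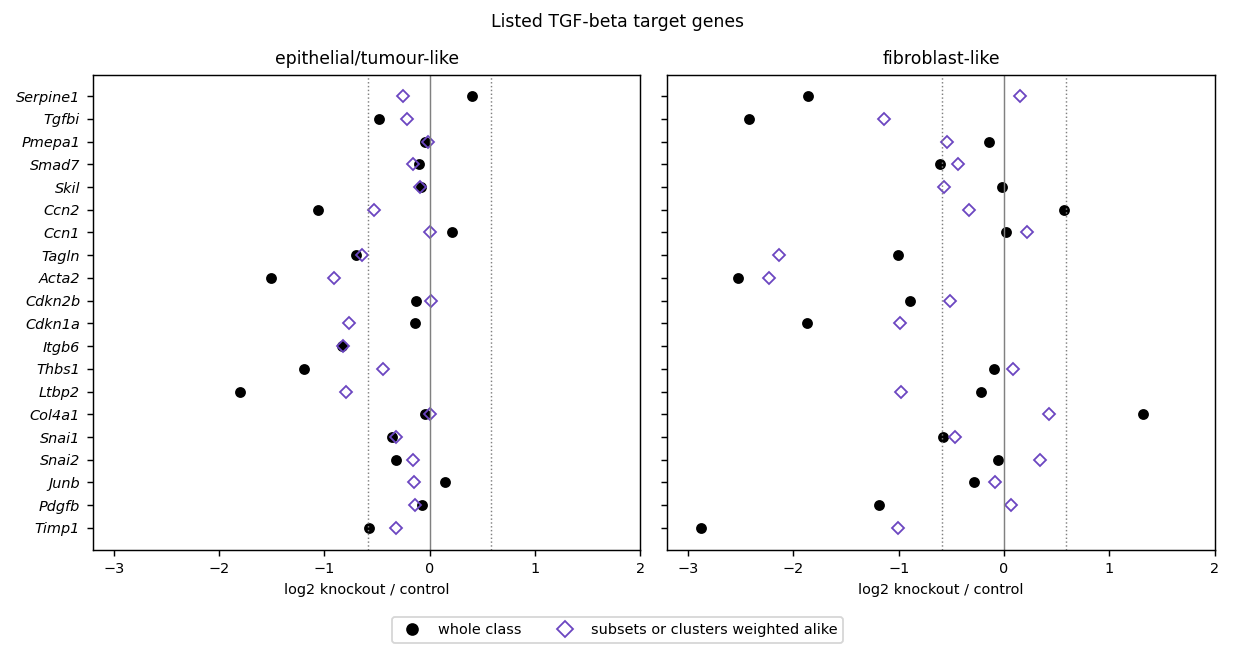
Log2 ratio of knockout over control for the 20 listed TGF-beta target genes in tumour-like and fibroblast-like cells, over the whole class (filled circles) and with subsets or clusters weighted alike (open diamonds); dotted lines mark 1.5-fold. In fibroblast-like cells 9 of 19 filled circles lie under the lower line, with Timp1 lowest at -2.88, and 6 diamonds do.

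Of 9 BMP target genes with a ratio in fibroblast-like cells, 2 were higher and 5 lower, against 19.4% and 13.5% of all genes, with a median of -0.61 beside 0.09. Id1, a direct target, was 25.7 and 8.34 CPM, but 12.8 and 11.2 CPM with clusters weighted alike. On that count 0 were higher and 1 lower, against 6.6% and 7.99% of all genes, with a median of -0.24 beside -0.01. In tumour-like cells, where Grem1 was higher and Bmp4 lower in the knockout, 1 of 10 BMP targets was higher and 2 were lower, against 9.87% and 6.48% of all genes, with a median of -0.13 beside -0.06, and with subsets weighted alike 0 passed 1.5-fold in either direction.

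The other lists of the pathway are read beside the same shares of all genes, in fibroblast-like cells 19.4% higher and 13.5% lower, and 6.6% and 7.99% with clusters weighted alike. Of 12 receptor genes there, 6 were higher and 0 lower, with a median log2 ratio of 0.61; they included Acvr2a, a type II activin receptor (23.6 and 57 CPM), and Eng, a co-receptor also known as endoglin (41.6 and 97.5 CPM). With clusters weighted alike 2 were higher and 0 lower, with a median of 0.15. Acvr2a was then 34.3 and 57.8 CPM, while Eng was 96.7 and 98.2 CPM and no longer differed past 1.5-fold. Of 14 ligand genes 4 were higher and 4 lower, and 2 and 2 of 11 with clusters weighted alike. Bmp6 was 5.68 and 27.5 CPM over the whole class and 10.1 and 30.6 CPM weighted alike. Gdf10, a ligand of the BMP3 type, was 42.9 and 175 CPM over the whole class but 154 and 170 CPM weighted alike. Of 10 genes of latency and activation 3 were higher and 1 lower, and with clusters weighted alike the balance was the opposite, 0 higher and 2 lower. Fbn1, the fibrillin that tethers latent complexes, was 1140 and 2150 CPM, but 1770 and 2200 CPM weighted alike, which is within 1.5-fold. Itgb8, an integrin subunit that releases active TGF-beta, was 33.5 and 11.5 CPM, and 17.9 and 10.9 CPM weighted alike. Of 11 secreted antagonists 2 were higher and 3 lower, and 2 and 1 weighted alike, with Bmper, a BMP binder, at 174 and 396 CPM and at 245 and 407 CPM. Of 13 SMAD genes and regulators 1 was higher and 1 lower, and 0 and 1 weighted alike. In tumour-like cells, against 9.87% and 6.48% of all genes, the counts were 4 higher and 2 lower of 14 ligands, 1 and 2 of 13 receptors, 1 and 2 of 10 antagonists, 1 and 4 of 12 genes of latency and activation, and 0 and 1 of 13 SMAD genes and regulators. With subsets weighted alike, against 7.7% and 5.5%, the balance of the ligands turned to 2 higher and 4 lower. Receptors were then 1 and 1, and antagonists 2 and 1. Genes of latency and activation were 0 and 2, and SMAD genes and regulators 0 and 0.

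Over the 24 sums of a class in a library with at least 30 cells, the genes whose log2 levels ran most like each of the 10 were found among 14622 genes. Inhba ran most like Prdx5 (Pearson r of 0.89), Npepps (0.88) and Hilpda (0.84), and Grem1 like Gm5148 (0.88), Ttr (0.88) and Prl2c3 (0.87). Hilpda and Prl2c3 are also among the leading genes of the tumour subsets with most Inhba. Bmp4 ran most like Nfib and Galnt15 (both 0.95), and Fst like Inava, A630023A22Rik and 9130008F23Rik (all 0.9). Tgfb1 ran most like Neurl3 (0.89), Tgfb2 like Hhipl1 (0.95), Tgfb3 like Sdc2 (0.94), Tgfbr3 like Sgce (0.92), Tgfbr1 like Pim1 (0.83) and Tgfbr2 like Chic2 (0.8). These points share their libraries and, between classes, free RNA, and the values are a description.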

How the data were processed

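Droplet libraries made with the 10x 3′ v3.1 kit, 1 per genotype, were analysed from the raw UMI counts that the authors deposited as sparse matrices. Per the file headers, Cell Ranger 8.0.0 wrote the deposited count matrices, while the submitters' processing notes name Cell Ranger 3.1.3 and mm10; which version counted the reads cannot be told apart. The deposited files held 13766 control and 12251 knockout barcodes with 173934025 and 137527647 UMIs.

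Barcodes under 500 genes or over 15% mitochondrial UMIs were left out, Scrublet doublets (1.27% and 3.16%) were removed, and cells were clustered with scanpy 1.11.5 (2000 variable genes without the 10 genes, 30 components, Leiden resolution 1). Classes were named from marker lists, and stromal, leukocyte and tumour cells were clustered again. UMIs were summed per class and library and given per 1000000 (CPM). Log2 ratios add 1 UMI and need 20 UMIs. They need 100 cells per library for a class or tumour subset, and 20 cells per library for a stromal or leukocyte cluster. With 1 library per group there was no test, and intervals are exact and 95%, for counting error only; UMIs of a gene set the precision. The free RNA level is the library level times the share of keratin or leukocyte transcripts found in a class that should lack them. Where both apply, the larger share is used. In tumour-like cells Cd74 made up 99.6% and 99.3% of the leukocyte set (1430 and 1710 CPM), and in cells with acinar markers 99.9% and 99.1%. The estimate gives no usable level in either class. In fibroblast-like cells Cd74 made up 95.8% and 78.9% of that set, so the larger share rests mostly on it. The calculation was tested on simulated data. Promoters are from RefSeq (GRCm38.p6), and gene positions were read from GENCODE M21.

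The 10 genes and the lists were chosen with earlier results of these data known. All 10 are named. Of a list, genes are named that are among its 3 highest levels or its 3 largest differences past 1.5-fold. For likeness, the closest of the 3 genes with the highest r are given. Alternatives were other cell filters, doublets kept, resolution 0.5, cells weighted alike, thinning to 1000 UMIs, other pseudocounts, minimums and scaling, and tumour subsets weighted alike. Weighted alike means that each cluster or subset has 1 weight in both libraries, its share of the cells of both. Left-out or alike-weighted fibroblast-like and macrophage-like clusters, and left-out tumour subsets, were added after the data were seen.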

Additional observations from a re-analysis of the deposited data

Results flagged for a closer look

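Several genes stood on opposite sides of equal in 2 cell classes of the same pair of libraries; with 1 library per genotype none of these differences was tested. The Inhba log2 ratio was 2.51 higher in neutrophil-like, 2.16 higher in tumour-like and 1.94 higher in monocyte/macrophage-like cells than in fibroblast-like cells. The Fst ratio was 1.70 higher on the log2 scale in tumour-like than in monocyte/macrophage-like cells, where it rests on 16 and 6 UMIs. The fibroblast-like ratio of Tgfb3 was 1.49, that of Tgfbr3 1.40 and that of Tgfbr2 1.05 above the tumour-like ratio on the same scale. For Tgfbr1 the fibroblast-like ratio lay 1.20 above the monocyte/macrophage-like one. For Tgfb1 the neutrophil-like ratio, 0.49, lay 1.48 above the fibroblast-like ratio, -0.99. The makeup of the classes differed between the libraries. With subsets or clusters weighted alike, the log2 ratio of Inhba was -0.08 in fibroblast-like cells, 0.23 in tumour-like cells and -0.09 in the monocyte/macrophage-like class. On that count Tgfb3 was -0.47 in fibroblast-like and -0.29 in tumour-like cells, so that the order turned, and Tgfbr3 was 0.18 and 0.03. Tgfbr2 was then 0.16 in fibroblast-like and -0.27 in tumour-like cells, Tgfbr1 0.13 in fibroblast-like and -0.38 in monocyte/macrophage-like cells, and Fst 0.14 in tumour-like and -0.46 in monocyte/macrophage-like cells. Tgfb1 was -0.83 in fibroblast-like cells weighted alike, and no such value was made for neutrophil-like cells.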

How the results depend on the processing

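No paired analysis was possible because each genotype has 1 library. Over 35 ratios and 376 alternative values, 346 kept their sign and 290 stayed within the counting interval of the reported value. Of ratios reported past 1.5-fold, 5 values had the opposite sign: Tgfbr3 in tumour-like cells with subsets weighted alike (log2 ratio 0.03), Tgfb3 in fibroblast-like cells without clusters of under 20 cells in either library (-0.16) or with clusters weighted alike (-0.47), and Fst in monocyte/macrophage-like cells as a mean of single-cell CPM (0.10) or thinned (0.45). The other sign changes were of ratios reported within 1.5-fold, among them Fst (up to 0.07), Tgfb2 (down to -0.20) and Grem1 (down to -0.31) in fibroblast-like cells. Inhba in tumour-like cells, 0.53 as reported, was 0.78 with the strict and 0.75 with the loose cell filter, 0.84 with doublets kept, 0.71 at resolution 0.5, 0.68 as a cell mean, 0.73 thinned, 0.57 with the other scaling, 0.23 with subsets weighted alike and 0.85 without subset 13. Grem1 there, 0.79, was 1.13, 1.10, 1.16, 1.08 and 0.89 under the first 5 of these and 1.21 without subset 13. Inhba in fibroblast-like cells, -1.63, was -1.07 with the strict filter, -0.79 with doublets kept, -1.31 as a cell mean, -0.50 thinned, -1.07 without the small clusters, -1.94 without the cluster with most tumour markers and -0.07 with clusters weighted alike. Inhba in monocyte/macrophage-like cells, 0.31, was 0.16 at resolution 0.5, -0.19 as a cell mean, -0.10 thinned and -0.09 with clusters weighted alike; its control level, 308 CPM, was 448 as a cell mean and 434 thinned. In subset 8 the control level, 850 CPM, was 825 with the loose filter and 899 thinned. In tumour-like cells the count of genes higher, 1, was 2 with either cell filter, doublets kept, resolution 0.5, cell mean, thinning or without subset 13; the count lower, 2, was 1 with either filter, doublets kept, resolution 0.5 or without subset 13, and 4 thinned. In fibroblast-like cells the count higher, 2, was 1 as a cell mean or thinned, and the count lower, 2, was 1 as a cell mean and 0 thinned. Of the 380 control cells of subset 13, 89, 113, 50 and 101 stayed in the tumour class with the strict filter, the loose filter, doublets kept and resolution 0.5, and 10, 12, 7 and 6 of the 41 knockout cells. In each of these settings 0 cells of either library were called fibroblast-like. The cause of these differences was not tested. Adding unnamed clusters with tumour markers was not run, since no unnamed cluster scored highest for tumour markers, and classes with under 100 cells in a library under an alternative gave no value. Depth limits the leukocyte classes most: 6 of the 10 genes had under 20 UMIs in neutrophil-like cells.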

Other observations

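The smaller classes, which had too few cells for a ratio, also carried these genes. Plasma-like cells had 131 CPM of Tgfbr1 in the control and 130 CPM in the knockout, over 54 and 200 cells, and 13.7 and 28.5 CPM of Tgfb1. Type 1 dendritic-like cells had 109 and 65.1 CPM of Tgfbr1 over 54 and 116 cells. Natural killer-like cells had 140 and 130 CPM of Tgfb1 over 38 and 243 cells. Mesothelial-like cells had 48.1 and 16.4 CPM of Tgfb2, 44.9 and 42.7 CPM of Tgfb3 and 22.5 and 36.1 CPM of Bmp4 over 45 and 31 cells.

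In neutrophil-like cells, 3 of 4 genes of latency and activation with enough UMIs were higher in the knockout, with a median log2 ratio of 0.86, and 3 of 8 SMAD genes and regulators, with a median of 0.47, where 16.8% of all genes were higher and 18.7% lower. Id2, an inhibitor of basic helix-loop-helix factors that BMPs can induce, was 139 CPM in control and 567 CPM in knockout neutrophil-like cells. The makeup of this class differed between the libraries, with 135 and 142 cells in its largest cluster of 293 and 185. Summed T-cell markers in the class were 31.5 and 180 CPM, and Cd74 was 107 and 617 CPM. Summed tumour, fibroblast, mesothelial and monocyte/macrophage markers were lower in the knockout. The part of the makeup and of transcripts from other cells in these values was not tested.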
